A study of Mus musculus with 13 samples.

Results

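The regions described here are the Ikzf4 peaks of newborn mouse retina that were also called in embryonic retina. They were chosen by position alone: a peak of postnatal day 0 (P0) replicate 1 was kept when it overlapped, by at least 1 bp, both a peak of P0 replicate 2 and a peak of embryonic day 14 (E14). Of the 2735 peaks of P0 replicate 1, 2122 were also in replicate 2, and 977 of these also had an E14 peak. The kept peaks thus made up 35.7% of the replicate 1 list (exact 95% interval 33.9 to 37.6%, counting error only). The other 1145 reproducible peaks had no E14 peak and are called P0-only peaks here, and 613 peaks were not in replicate 2. The 977 kept peaks lay over 986 of the 2472 E14 peaks (39.9%) and 979 of the 4109 peaks of replicate 2 (23.8%).

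The series compared binding of 2 Ikaros family proteins in retina of CD1 mice. The CUT&RUN libraries used fell into 3 groups: Ikzf4 in whole E14 retina (1 library), Ikzf4 in whole P0 retina (2 libraries), and Ikzf1 in P0 retinal explants. Each Ikzf4 library came from 1500000 cells of untreated retina, in which all retinal cell types were mixed. The Ikzf1 library (1 library) came from 50000 sorted GFP-positive cells of explants that had been electroporated with CAG-Ikzf1-IRES-GFP, a plasmid that drives Ikzf1 and GFP from a ubiquitous promoter, and cultured for 9 h, so it measured a misexpressed protein. The labels do not say whether the 2 P0 libraries came from separate litters, and their difference may be technical. E14 had no replicate.

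Ikzf4 encodes Eos and Ikzf1 encodes Ikaros, zinc finger proteins of 1 family that bind DNA through a group of fingers near the N terminus and form dimers through a pair of fingers near the C terminus. Ikaros proteins can repress or activate genes together with chromatin complexes such as NuRD. The retina is built from progenitors that produce its cell types in an order: at E14 mainly early types such as ganglion cells, cones, horizontal and amacrine cells, and around birth mainly late types such as rods. CUT&RUN tethers a nuclease to a protein through an antibody, so that DNA next to the protein is cut free and its fragments pile up at the bound place.

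Each deposited Ikzf4 peak carried a fold enrichment and a p-value at its summit. Under the formulas of the MACS2 peak caller, these 2 numbers fix the pileup (how many fragments cover the summit base) and the expected level (how many would cover it by background). A whole-number pileup that fitted both, within 0.001 on the −log10 p scale beyond rounding, was found for 99.8% of the E14 peaks, 99.3% of the peaks of P0 replicate 1 and 99.6% of those of replicate 2. When the p-values were moved by 0.02 on that scale, at most 0.728% of a list still found one. Of the kept peaks, 959 were solved in all 3 lists, and the other 18 all had nearest fitting pileups of 1070 or more. The lowest expected level of a list, called the floor, is taken here as its genome-wide background. The floor was 1.42 fragments for E14, 1.25 for P0 replicate 1 and 1.33 for replicate 2, so the 3 floors were close.

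The strongest kept peaks stood near the top of all 3 lists. They are the 8 peaks whose lowest percentile of fold over the 3 lists was highest, each at or above the percentile 99.3. First came a peak on mm9 chromosome 7 at 148513241 to 148514182, where the fold was 27.2 at E14 and at P0 reached 48.0 (replicate 1) and 50.8 (replicate 2). Its summit was covered by 216 fragments at E14 and by 164 and 182 at P0. The E14 library had the most fragments here and the lowest fold.

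Next came a peak on chromosome 8 at 73300397 to 73301299, where the fold was 25.2 at E14 and at P0 reached 53.4 (replicate 1) and 51.2 (replicate 2), from 158, 119 and 130 fragments. A peak on chromosome 19 at 7415891 to 7416739 had folds of 21.1, 44.3 and 43.9 in the same order, from 114, 130 and 134 fragments. In both, the P0 libraries lay close together and E14 lay below them in fold. The fragment counts were in another order, with E14 highest on chromosome 8 and lowest on chromosome 19.

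A second peak of chromosome 7, at 16984796 to 16985714, had folds of 20.4, 46.0 and 49.4, and a peak on chromosome 10 at 80065522 to 80066218 had folds of 22.4, 33.7 and 39.1 (E14, P0 replicate 1, replicate 2). A peak on chromosome 14 at 55221765 to 55222503 had folds of 22.1, 35.2 and 29.2, and one on chromosome 18 at 13131667 to 13132969 had 19.6, 29.2 and 49.4. The last was on the X chromosome at 96132302 to 96133482, with folds of 35.8, 27.8 and 35.2. It was the only 1 of the 8 in which the E14 fold was above both P0 folds, and its fold at E14 was the highest of any kept peak there. Gene annotation of mm9 was not used here, so no gene is named for these places.

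Across all 977 kept peaks the authors' fold enrichment was lower at E14 than at P0. Its median was 4.22 at E14, with quartiles of 3.26 and 5.42, against 6.36 (4.90 and 8.52) in P0 replicate 1 and 7.73 (5.58 and 10.6) in replicate 2. The median ratio of the E14 fold to the P0 mean was 0.607, or -0.72 on the log2 scale. Against replicate 1 alone the median log2 ratio was -0.57 and against replicate 2 alone -0.81, while replicate 2 stood 0.23 above replicate 1. The step from E14 to either P0 library was thus larger than the step between the P0 libraries. The E14 fold was below both P0 folds at 765 kept peaks (78.3%), between them at 122 and above both at 90. These values come from the lists that chose the peaks and are a description without a test. A peak had to be called at E14 to be kept, so E14 signal too weak for a call is not among them.

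The pileup did not show this order. The median kept peak was covered by 22 fragments at E14, 17 in P0 replicate 1 and 21 in replicate 2. Divided by the floor of each library, these medians were 15.5, 13.6 and 15.8. The median log2 ratio of E14 to the P0 mean on this scale was 0.03, with 0.15 against replicate 1 and -0.10 against replicate 2. Replicate 2 stood 0.21 above replicate 1, so E14 lay between the 2 P0 libraries. On this scale E14 was below both P0 libraries at 331 kept peaks, between them at 243 and above both at 403. A ratio of E14 to the P0 mean between 2-fold lower and 2-fold higher was found at 882 kept peaks (90.3%), with 50 lower and 45 higher than that. Between the P0 libraries, 949 kept peaks (97.1%) were within 2-fold. A kept peak had to be called in each list, so pileups too low for a call are missing on this scale too. How far the calls set these ratios was not tested. A pileup of 17 fragments has an exact Poisson 95% interval of 9.90 to 27.2 from counting alone, so at the median kept peak a 2-fold difference is near the limit of what the depth can show.

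The expected level was higher in the E14 list than in the P0 lists. Its median over the kept peaks was 4.45 fragments at E14, against 1.47 in P0 replicate 1 and 1.56 in replicate 2, or 3.13, 1.18 and 1.17 times the floors. The E14 value, over its floor, was above both P0 values at 853 of the 977 kept peaks, and the median ratio of E14 to the P0 mean was 2.05. Only 28 kept peaks (2.87%) sat at the floor at E14, against 358 (36.6%) in P0 replicate 1 and 363 (37.2%) in replicate 2. The whole lists had the same order. Across all peaks of each list, 15.1% sat at the floor at E14, 42.1% in P0 replicate 1 and 45.2% in replicate 2. The median expected levels of the whole lists were 2.47, 1.47 and 1.49 fragments. Over the floor, the expected levels of the P0 libraries were within 10% of each other at 624 kept peaks (63.9%), and E14 was within 10% of replicate 1 at 81 (8.29%). Of the 624, 298 were at the floor in both P0 lists, where the ratio is 1 by construction, and of the other 679 kept peaks 326 (48.0%) were within 10%. Over all 977 kept peaks, these 298 included, the log2 ratio of replicate 2 to replicate 1 on this scale had quartiles of -0.00443 and 0.00366. Which control library, if any, entered each list is not given in the sources used here, and what set this closeness was not tested. If both P0 lists used 1 control, the closeness of their expected levels is not a spread between replicates. Stage, library and control cannot be told apart in the difference of E14 from P0, which is 1 library against 2. With the expected level subtracted, the pileup in floor units had a median of 11.8 at E14, against 12.5 (replicate 1) and 14.8 (replicate 2) at P0. On this scale E14 was below both P0 libraries at 448 kept peaks, between them at 244 and above both at 285.

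**Figure D1:**
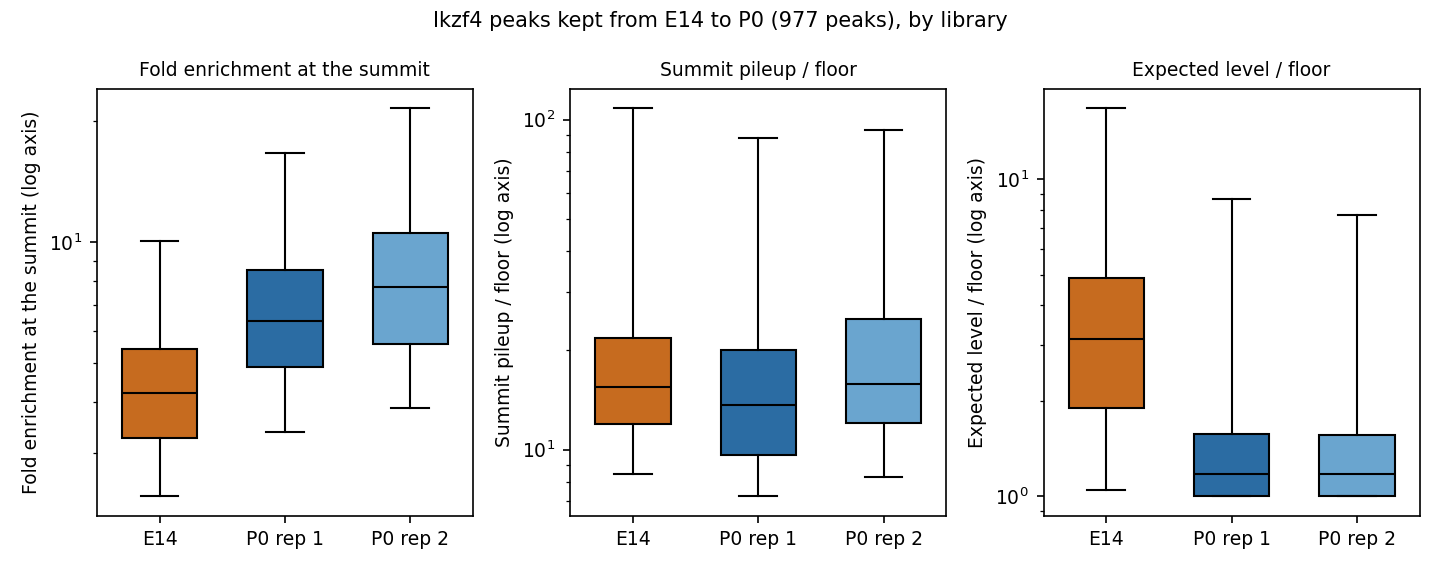
Fold enrichment, summit pileup and expected level of the 977 kept peaks in each Ikzf4 library, the last 2 divided by the library's floor (log axes). Boxes show the quartiles with the median as a line and whiskers reach from the percentile 5 to the percentile 95: E14 is lowest in fold (median 4.22), lies between the P0 libraries in pileup (15.5) and is highest in expected level (3.13).

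The ranking of the kept peaks carried over between the stages better in pileup than in fold. Across the 977 peaks the Spearman correlation of fold was 0.19 between E14 and P0 replicate 1, 0.26 between E14 and replicate 2 and 0.75 between the P0 libraries. For the pileup it was 0.61, 0.61 and 0.81 in the same order. With the expected level subtracted it was 0.57, 0.58 and 0.80. Within the E14 library, fold and expected level had a correlation of -0.56, against -0.23 and -0.25 in the P0 libraries. The expected level is part of the divisor of the fold, so a negative correlation is partly built in. More kept peaks sat at the floor at P0, where the expected level does not vary. The peaks share their libraries and their local sequence, so these are descriptions across peaks. Without the 68 places of high expected level described further on, the correlations of pileup were 0.53, 0.53 and 0.77.

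**Figure D2:**
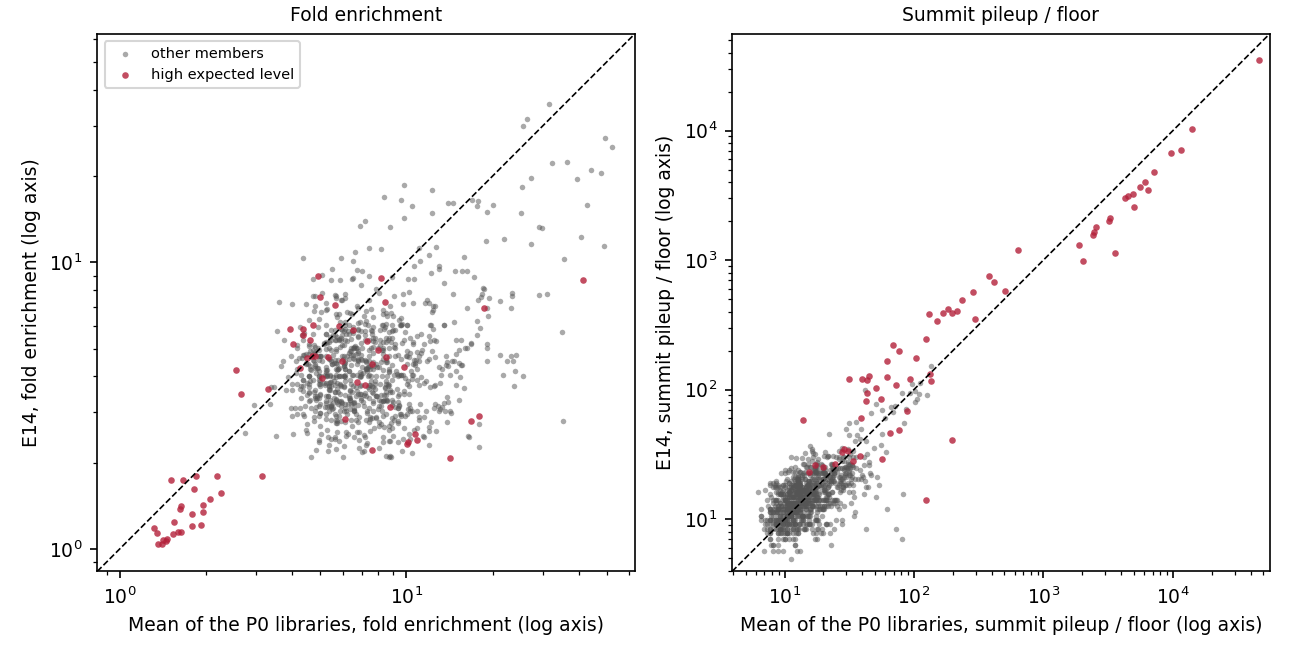
E14 against the mean of the P0 libraries for each kept peak, as fold enrichment (left) and as summit pileup over the floor (right), both on log axes, with equality as a dashed line and the 68 peaks of high expected level in red. Most points lie below the line in fold (765 below both P0 libraries), whereas in pileup they lie around it (331 below both, 403 above both).

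The kept peaks that differed most in fold between the stages were of both kinds, with and without a difference in fragments. The lowest ratio of E14 to P0 was on chromosome 14 at 120876702 to 120877946, with a fold of 2.79 at E14 against 32.0 and 38.2 at P0. The summit of each list's own peak held 17 fragments at E14 and 71 and 88 at P0. The expected level there was 5.44 at E14 and 1.25 and 1.33 at P0. The P0 replicate 1 summit lay at -510 bp from the E14 summit and at 12 bp from that of replicate 2. Both parts of the fold thus differed, but between separate places, and the E14 coverage at the P0 summit was not measured. On chromosome 17 at 57386896 to 57387436 the fold was 2.47 against 18.1 and 15.04, from 21 fragments at E14 and 47 and 42 at P0. The expected level at these summits was 7.92 at E14 and 1.65 and 1.86 at P0. The P0 replicate 1 summit lay at 103 bp from that of E14.

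At another of the 4 lowest, on chromosome 8 at 4166032 to 4166637, the fold was 2.07 at E14 against 13.8 and 14.6 at P0. The fragments numbered 38 at E14 and 30 and 33 at P0, and the expected level was 17.8 at E14 against 1.25 and 1.33. The E14 summit was thus covered by no fewer fragments than those of P0. The remaining one, on chromosome 19 at 43749159 to 43749951, had folds of 2.26, 15.6 and 20.2, from 27, 34 and 46 fragments. Its expected level was 11.4 at E14 and 1.25 and 1.33 at P0. In all, the E14 fold was at least 2-fold below the P0 mean at 354 kept peaks (36.2%). At 182 of these the E14 pileup over the floor was also below both P0 libraries, and at 172 it was not.

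Only 3 kept peaks had an E14 fold at least 2-fold above the P0 mean. The highest ratio, 2.36, was on chromosome 5 at 100042682 to 100043022, where the fold was 10.3 at E14 and 4.90 and 3.86 at P0, from 24 fragments at E14 and 10 and 8 at P0. On chromosome 18 at 85867342 to 85867664 the fold was 16.9 against 7.999 and 8.79, from 141 fragments at E14 and 50 and 58 at P0. On chromosome 2 at 44782297 to 44782810 it was 7.27 against 4.07 and 3.10. The next in this order, on chromosome 1 at 34273549 to 34273755, had 13.99 against 6.41 and 7.95, from 33, 16 and 21 fragments. At all 4 of these peaks the E14 library held more fragments than either P0 library.

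A small part of the kept peaks lay where the expected level was itself very high. At 68 kept peaks (6.96%) it was at least 10 times the floor in at least 1 library, a limit set after the values were seen. It was that high at E14 in 67, in P0 replicate 1 in 47, in all 3 libraries in 45, and at E14 alone in 21. The 5 kept peaks of highest score in P0 replicate 1 were all of this kind. The first, on chromosome 2 at 98506795 to 98507366, had folds of only 1.80 at E14 and 2.22 and 2.14 at P0. Its summit held 49981 fragments at E14 against an expected 27694, and 58811 and 61160 at P0 against 26484 and 28570. Fold and score thus ranked this place in opposite ways.

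The other 4 of highest score belonged to 1 dense run on chromosome 9, starting at 3024112, 3025427, 3031754 and 3034455. This run held 17 kept peaks between 3000295 and 3038195, out of 23 peaks of P0 replicate 1 there, and all 17 had a high expected level. Their folds were 1.04 to 1.56 at E14, 1.30 to 2.21 in P0 replicate 1 and 1.33 to 2.32 in replicate 2. Summits little above their own expected level were thus called here in every list. The widest kept peak, on chromosome 18 at 3113449 to 3120769 (7321 bp), was not of high expected level. It had folds of 3.09 at E14 and 13.7 and 11.2 at P0. Its P0 replicate 1 summit lay at -864 bp from that of E14 and at 3497 bp from that of replicate 2. These folds thus belong to separate places within the peak. The next widest were on chromosome 7 at 12595702 to 12602291 (6590 bp) and on chromosome 17 at 39979961 to 39985750 (5790 bp), both with a high expected level. The peak on chromosome 17 had folds of 4.63 at E14 and 4.08 and 4.95 at P0. Its P0 replicate 1 summit lay at 0 bp from that of E14 and at 1308 bp from that of replicate 2. Without the 68 places, 909 kept peaks were left, with median folds of 4.24 at E14 and 6.49 and 7.80 at P0.

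The positions of the summits were compared between the lists. The rule bounds these distances, since the peaks had to overlap and had median widths of 333 bp (E14), 381 bp (P0 replicate 1) and 443 bp (replicate 2), so they are a description only. The overlap with the E14 peak had a median of 258 bp. The summit of P0 replicate 1 lay inside the E14 peak at 849 kept peaks (86.9%) and inside the replicate 2 peak at 942 (96.4%). The median distance between summits was 59 bp from P0 replicate 1 to E14, 49 bp from replicate 2 to E14 and 46 bp between the P0 libraries. The summit lay within 50 bp of that of E14 at 45.0% of the kept peaks and within 50 bp of that of replicate 2 at 53.4%. Nearly all kept peaks had a single partner: 966 had 1 E14 peak, 10 had 2 and 1 had 3.

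**Figure D3:**
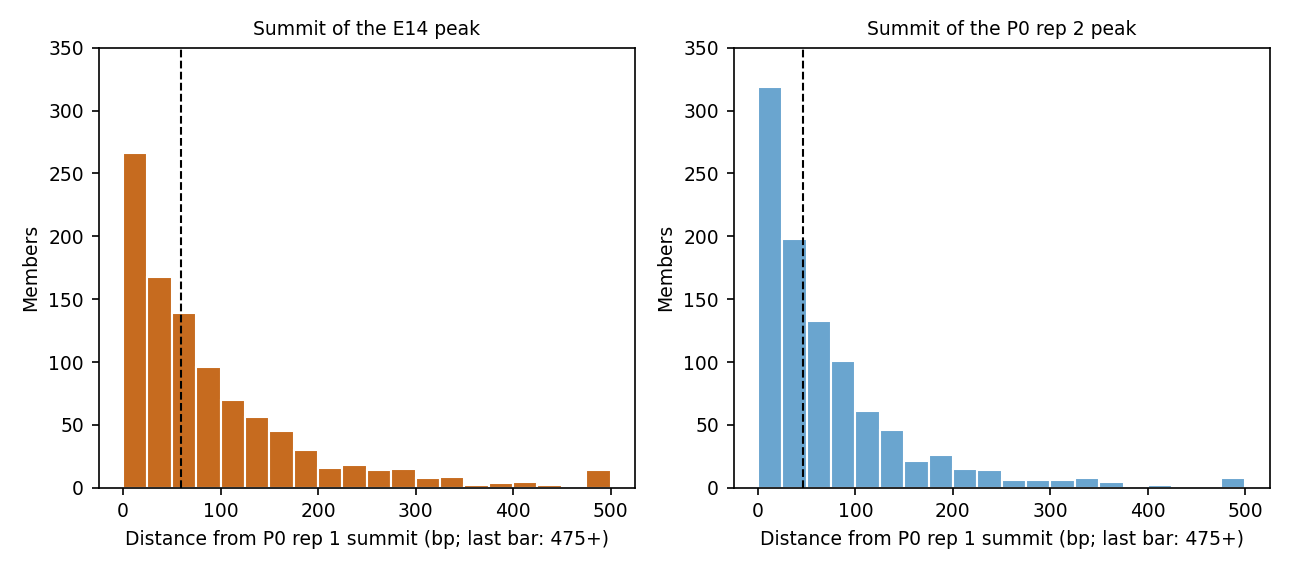
Distance in bp from the summit of P0 replicate 1 to that of the overlapping E14 peak (left) and replicate 2 peak (right), as numbers of kept peaks in bins of 25 bp, with the median as a dashed line and all larger distances in the last bar. Both fall off quickly, with medians of 59 and 46 bp.

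At the limit of the rule the difference between kept and not kept was a few base pairs. The 3 kept peaks with the smallest E14 overlap shared 3, 7 and 20 bp with it, on chromosome 19 at 54018823 to 54019441, chromosome 5 at 124777845 to 124778119 and chromosome 6 at 82724434 to 82724661. Their pileups in P0 replicate 1 were 18, 18 and 15. The 3 P0-only peaks nearest to an E14 peak missed it by 1, 3 and 9 bp and had pileups of 10, 10 and 17. Such cases were few: 14 kept peaks overlapped E14 by under 50 bp, and 28 P0-only peaks had an E14 peak within 500 bp.

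The kept peaks were spread over chromosomes 1 to 19 and X. The distance from one to its nearest kept neighbour had a median of 482 kb, and 65 had a neighbour within 5 kb. Among chromosomes 1 to 19 the share of reproducible P0 peaks that were kept ran from 37.7% on chromosome 2 (52 of 138, exact 95% interval 29.6 to 46.3%) to 55.4% on chromosome 7 (82 of 148, 47.0 to 63.6%). On the X chromosome it was 41.9% (13 of 31). Unplaced contigs held 6 kept peaks, and 0 lay on the Y chromosome or the mitochondrial genome.

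Within each list the kept peaks were wider and covered by more fragments than the rest, as far as medians show it. In P0 replicate 1 their median width was 381 bp, against 284 bp for P0-only peaks and 229 bp for peaks not in replicate 2. Median pileups were 17, 13 and 10, and median folds 6.36, 5.34 and 4.45, while the median expected levels were 1.47, 1.39 and 1.47. At E14 the peaks under a kept peak held a median of 22 fragments and the other E14 peaks 12. The median expected levels there were 4.45 and 1.98, and the folds 4.19 and 4.03. The E14 peaks under a kept peak thus stood out in fragments and hardly in fold, and their places had a higher expected level than those of the other E14 peaks. In replicate 2 the pileups were 21 and 13 and the folds 7.73 and 5.15. A kept peak had to be called in every list, so these medians depend on the choice of peaks and are a description only.

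The share of reproducible P0 peaks that were kept rose with their pileup. It was 30.1% of those with 7 to 11 fragments in P0 replicate 1 (exact 95% interval 26.4 to 34.0%), 39.1% with 12 to 14, 47.3% with 15 to 20 and 70.0% with 21 or more (65.8 to 73.9%). By width it was 32.1% of those up to 239 bp and 67.0% of those from 444 bp. A wider peak has a larger chance to touch a peak of another list, and the part of width in these shares was not tested. Pileup also comes from a list that the rule used, and how far the choice of peaks sets the rise with pileup was not tested. A q value under 0.05 was reached by 873 kept peaks at E14, 954 in P0 replicate 1, 974 in replicate 2 and 853 in all 3. In P0 replicate 1, q was over 0.05 for 2.35% of kept peaks, 5.41% of P0-only peaks and 14.845% of peaks not in replicate 2. At E14 it was over 0.05 for 10.95% of the peaks under a kept peak and 26.78% of the others. In replicate 2 these shares were 0.306% and 7.41%. They too come from lists that the rule used.

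Overlap with Ikzf1 was the 1 readout that the choice of peaks did not use. An Ikzf1 peak lay under 18 of the 977 kept peaks (1.84%, exact 95% interval 1.10 to 2.90%) and under 28 of the 1145 P0-only peaks (2.45%, 1.63 to 3.52%). The difference was -0.603 percentage points with an interval of -1.86 to 0.687 (Newcombe), so the 2 shares were not told apart by counting error. Among peaks not in replicate 2 it was 3.75% (23 of 613), and the difference of the kept peaks from these was -1.91 points (-3.85 to -0.285). Ikzf1 had 1 library, and its list of 1787 peaks has a score of 0 throughout, so neither replicate error nor the strength of its peaks could be used. The 18 Ikzf1 peaks were 1.01% of that list.

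Of the 18 kept peaks with an Ikzf1 peak, 6 were among the 68 places of high expected level. Those 6 lay on chromosome 2 at 98506795 to 98507366, on chromosome 9 from 3006444 and from 3024112, on the X chromosome from 166427389 and from 166438271, and on an unplaced contig. Their folds were 1.04 to 1.80 at E14 and 1.41 to 2.22 in P0 replicate 1. Below the limit of expected level in P0 replicate 1 the shares were 1.29% of the kept peaks (12 of 930) and 1.61% of P0-only peaks (18 of 1118), a difference of -0.32 points (-1.39 to 0.799). At or above it they were 12.8% (6 of 47) and 37.0% (10 of 27). Among peaks not in replicate 2 the share was 3.00% (18 of 600) below the limit and 38.5% (5 of 13) at or above it. No interval was computed for the difference of the kept peaks from these. In 4 groups cut at the quartiles of the fold of P0 replicate 1, the share among kept peaks was 3.08%, 1.38%, 0.870% and 2.09% from the lowest folds to the highest, against 4.19%, 1.73%, 1.15% and 2.22% among P0-only peaks. In 4 groups cut at the quartiles of width, it was 1.75%, 0.493%, 1.61% and 2.82% among kept peaks from the narrowest to the widest, against 1.11%, 2.99%, 2.18% and 4.57% among P0-only peaks. The kept share was thus the higher one among the narrowest peaks and the lower one in the other 3 width groups. Every share within a fold or width group rests on 15 overlaps or fewer.

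**Figure D4:**
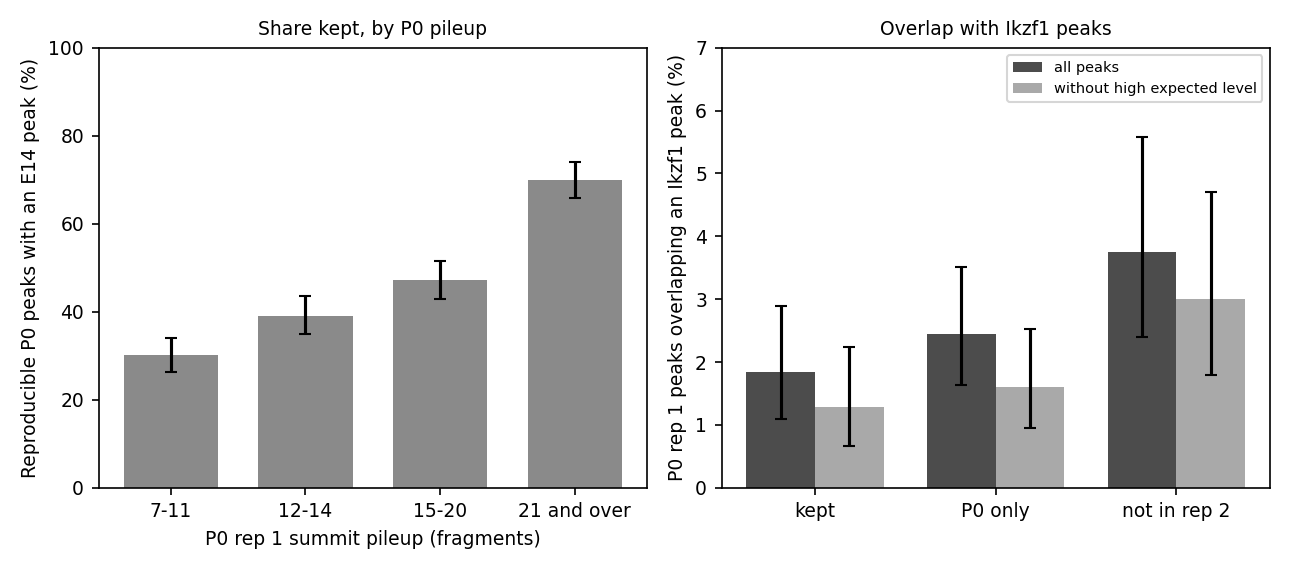
Left, the share of reproducible P0 peaks with an E14 peak (%), by summit pileup in P0 replicate 1. Right, the share of P0 replicate 1 peaks that overlap an Ikzf1 peak (%), for kept, P0-only and not reproduced peaks, with all peaks (dark) and without those of high expected level in P0 replicate 1 (light). Bars are shares and lines exact 95% intervals: the kept share rises from 30.1% to 70.0%, and the Ikzf1 share of kept peaks (1.84%) has an interval that overlaps that of P0-only peaks (2.45%).

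The other 12 kept peaks with an Ikzf1 peak included some of the strongest. The one on chromosome 14 at 55221765 to 55222503, among the 8 strongest above, had 65 fragments at E14 and 78 and 67 at P0, on an expected level of 1.98, 1.25 and 1.33. A peak on chromosome 3 at 136411640 to 136412957 had folds of 18.4 at E14 and 18.3 and 32.4 at P0, from 53, 62 and 82 fragments. A second on chromosome 3, at 137696811 to 137697371, had folds of 9.34, 14.2 and 18.5. These 3 places were well above background in every Ikzf4 library.

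The remaining 9 had folds of 2.65 to 7.24 at E14, 4.90 to 9.17 in P0 replicate 1 and 3.63 to 14.2 in replicate 2. They started on chromosome 2 at 173234868 and 173239449, chromosome 4 at 33276035, chromosome 7 at 89919660 and 144602220, chromosome 9 at 61281854 and 62659278, chromosome 12 at 25781024 and chromosome 19 at 10969556. The 2 places on chromosome 2 are neighbours, and at the one starting at 173239449 the fold was 2.65 at E14 against 8.12 and 13.6 at P0. Its summit held 20 fragments at E14 and 23 and 41 at P0.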

How the data were processed

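The peak lists were made by the authors with Bowtie2 and MACS2, 1 list per library, per the submitters' processing notes; versions, options and the control library are not given in the sources used here. For each Ikzf4 peak the authors deposited −log10 p, −log10 q, a score and a fold over the expected level (a ratio), whereas the deposited score of every Ikzf1 peak was 0. The score equals 10 times −log10 q, and the largest q was 0.493 to 0.496, so weak peaks are included. The build was taken as mm9 from contig names and chromosome ends. Depth was not given beyond the recovered pileups. The RNA libraries were not used here, and the IgG library was not analysed here.

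Overlaps needed 1 bp, and of several partners the highest-scored was used. The pileup was solved from fold = (pileup + 1) / (expected + 1) and the upper Poisson tail, and the solver was tested on simulated data (Python 3.11.15, scipy 1.17.1). Intervals are exact binomial or Poisson, or Newcombe for differences, and cover counting error only; no test over peaks was made, since peaks are not replicates. The regions named are those with the highest lowest percentile of fold (8), the highest score (5), an Ikzf1 peak, extreme E14 to P0 ratios (4 each way), the largest width (3), and those at the limit of the rule. The members and these choices were made with earlier results of these data known. Pileup, expected level and the high-level limit were added after the values were seen. The alternatives were other overlap rules, stricter lists, other base lists and leaving out each P0 library.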

Additional observations from a re-analysis of the deposited data

How the results depend on the processing

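Across the alternatives, the number of kept peaks ran from 467 to 1319 and stayed within 1.5 times the reported 977, except at 467 with the higher-scored part of each list. It was 1055 without P0 replicate 2 and 1319 without P0 replicate 1. The share with an Ikzf1 peak stayed inside its interval in 12 of 13 settings and was 0.716% when the Ikzf4 summit base itself had to lie in the Ikzf1 peak. The median log2 ratio of the E14 fold to P0 was negative throughout, from -0.82 to -0.53. It was -0.53 without P0 replicate 2, which moved it by more than the spread between the P0 libraries (SD 0.173), and -0.67 without P0 replicate 1. The pileup and expected level were added after the values were seen, with their alternatives. The ratio for the pileup ran from -0.03 to 0.16, within that spread, so its sign is not fixed (0.16 without P0 replicate 2 and 0.00 without P0 replicate 1). The ratio for the expected level ran from 0.92 to 1.16. The SD over the P0 libraries it was set against (0.00816) is no replicate spread if both P0 lists used 1 control, which is not given in the sources used here. It was 1.06 with an overlap of 50% of the shorter peak and 1.16 with 50% of each, 1.003 at a q value under 0.05, 1.13 with the higher-scored part and 1.13 with equal list lengths. It was 1.02 without P0 replicate 2, 0.92 without P0 replicate 1, 1.01 from replicate 2 peaks, 1.01 from E14 peaks and 1.06 without places of high expected level. The last setting was also added later. The cause of these shifts was not tested. No paired analysis was possible because no result comes from a test, and the CUT&RUN groups share fewer than 2 replicate numbers. The distance to gene starts and the fold changes of nearest genes were not run, since no annotation of mm9 was used here.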
